A study of Mus musculus with 10 samples.

Results

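The Vmn2r, Taar and Tas2r genes, which encode vomeronasal type 2 receptors, trace amine-associated receptors and bitter taste receptors, were examined in microglia, the resident macrophages of the brain. Members were the protein-coding genes whose RefSeq symbol on GRCm38 is Vmn2r, Taar or Tas2r followed by a number. Each gene thus entered by its name, but the families were chosen with earlier results of these data known. The rule found 173 genes among 46152 counted, namely 123 Vmn2r, 15 Taar and 35 Tas2r genes, of which 169 had a count in at least 1 library. The microglia came from healthy C57BL/6J mice of 8 to 12 weeks that were gavaged for 8 days. In the Vehicle group (n = 5) the gavage held only the carrier, Tween 80 in hydroxymethyl propyl-cellulose, and in the GW2580 group (n = 5) it delivered 80 mg/kg/d of GW2580, an inhibitor of the CSF1R kinase that transmits the survival signals of microglia. Males numbered 2 and females 3 in each group, and all mice were of the same strain. Brain cells were enriched with magnetic beads against CD11b, a surface protein that other myeloid cells also carry, and each mouse gave 1 poly(A)-primed, amplified library, named here by group and replicate number.

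Vomeronasal type 2 receptors are G protein-coupled receptors with a large extracellular domain, encoded over several exons, that detect peptide and protein cues in sensory neurons of the vomeronasal organ. Trace amine-associated receptors detect volatile amines, most of them in the olfactory epithelium, and bitter taste receptors detect bitter compounds in taste cells and in chemosensory cells of other organs. With few exceptions the genes of the last 2 families carry their coding sequence in 1 exon, and none of the 3 families is a known marker of microglia.

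The libraries held between 12550418 and 26079343 fragments assigned to genes. The 173 genes took 0.0109% to 0.0162% of these in the Vehicle libraries and 0.0146% to 0.0401% in the GW2580 libraries. Of the uniquely aligned fragments, 55.2 ± 5.21% with Vehicle and 61.3 ± 9.68% with GW2580 lay on no annotated exon (SD, n = 5 each), and this share was 68.0% in GW2580 1 and 70.8% in GW2580 4, the 2 highest of all libraries. Microglia markers were abundant in every library, since the summed level of Tmem119, Fcrls, Siglech and P2ry12 ranged from 5811 to 13488 CPM with Vehicle and from 7564 to 26392 CPM with GW2580, and 0 of these 4 genes was called. Oligodendrocyte markers set Vehicle 2 and Vehicle 5 apart, with summed levels of 15047 and 3081 CPM against 44.6 to 186 CPM in the other Vehicle libraries and 82.6 to 1369 CPM with GW2580. Of the 5 markers 4 were tested and 3 called lower, beside 6.7% of all genes tested. The 4 astrocyte markers were at 369 and 498 CPM in the same 2 libraries, against 138 to 171 CPM in the other Vehicle libraries and 120 to 277 CPM with GW2580, and all 4 had log2 fold changes below 0 (median -1.60), although 0 was called. Of the 5 neuron markers 1 was called lower (51.6 to 359 CPM with Vehicle, 40.2 to 94.3 CPM with GW2580), and of the 3 endothelial markers 2 were tested and 0 called. The part of these other cells in the receptor values was not tested beyond a fit without Vehicle 2 and Vehicle 5, given with the calls.

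All 123 Vmn2r genes had several exons (5 to 14, median 6) and a median of 2571 exon bases, whereas the 35 Tas2r genes and 14 of the 15 Taar genes had 1 exon. The exception was Taar2, which has 2 exons. The Taar genes lie together on chromosome 10, 33 of the Tas2r genes on chromosome 6, and the Vmn2r genes mainly on chromosomes 7 (52 genes) and 17 (31 genes). Many members are close copies of each other, which matters here because only fragments with a single place in the genome were counted. The coding sequence of a Vmn2r gene was a median of 94.4% identical to that of its nearest member, against 93.5% for Taar and 66.0% for Tas2r genes. The following stretches are the first 90 coding bases, taken from the GENCODE M21 transcripts on GRCm38. Taar7d and Taar7e are shown because they had the largest fold changes, beside the other members of the Taar7 group with a matched sequence. Capitals mark the bases that differ from Taar7d.
Taar7d: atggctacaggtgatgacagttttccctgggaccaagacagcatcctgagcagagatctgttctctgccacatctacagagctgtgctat
Taar7e: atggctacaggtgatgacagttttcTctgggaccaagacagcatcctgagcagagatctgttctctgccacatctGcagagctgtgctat
Taar7a: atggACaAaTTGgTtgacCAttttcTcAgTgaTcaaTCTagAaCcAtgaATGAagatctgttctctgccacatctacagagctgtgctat
Taar7b: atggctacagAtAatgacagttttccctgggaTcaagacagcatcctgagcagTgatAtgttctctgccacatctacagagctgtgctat
Taar7f: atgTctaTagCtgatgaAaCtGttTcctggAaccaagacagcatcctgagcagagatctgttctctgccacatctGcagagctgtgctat

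Over their whole coding sequence of 1074 bases, Taar7e differed from Taar7d at 67 bases, Taar7a at 70, Taar7b at 65 and Taar7f at 62. Of all stretches of 150 bases, the read length, that lie in Taar7d 2.92% were also found in another gene, against 20.0% of those in Taar7e. The next sets hold the 3 called Vmn2r genes described first, each above its closest member, with capitals at the bases that differ from the gene printed above.
Vmn2r19: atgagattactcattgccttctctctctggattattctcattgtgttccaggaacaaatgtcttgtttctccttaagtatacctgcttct
Vmn2r20: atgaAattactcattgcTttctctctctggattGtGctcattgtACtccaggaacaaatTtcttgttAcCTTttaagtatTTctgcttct
Vmn2r49: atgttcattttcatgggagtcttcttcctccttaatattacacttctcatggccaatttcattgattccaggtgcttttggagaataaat
Vmn2r32: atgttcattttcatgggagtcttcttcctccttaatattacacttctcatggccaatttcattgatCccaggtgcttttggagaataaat
Vmn2r44: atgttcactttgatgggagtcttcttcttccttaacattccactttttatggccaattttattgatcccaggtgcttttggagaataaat
Vmn2r31: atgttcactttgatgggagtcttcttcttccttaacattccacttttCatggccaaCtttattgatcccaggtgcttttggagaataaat

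Vmn2r19 and Vmn2r20 were 89.5% identical and shared no stretch of 150 bases. Vmn2r49 and Vmn2r32 differed at 14 of 2556 coding bases, and Vmn2r44 and Vmn2r31 at 19 of 2583. In Vmn2r49 48.9% and in Vmn2r44 49.3% of such stretches were also present in another gene. Fragments that lie wholly in such stretches could go uncounted, and the values of these 2 genes are uncertain in that respect.

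To ask whether treatment altered the receptor genes, the counts of all genes were fitted with edgeR's quasi-likelihood test, and a gene was called where its fold change exceeded 2 with an unadjusted p under 0.05. Of the 76 members above 1 CPM (counts per 1000000 assigned fragments) in at least 3 libraries, 22 were called higher with GW2580 and 0 lower, beside 4.01% called higher and 6.7% called lower among the 28419 genes tested. They were 17 of 67 Vmn2r, 3 of 5 Taar and 2 of 4 Tas2r genes. No call passed correction for all genes, as the smallest Benjamini-Hochberg adjusted p of the edgeR test was 0.280 for the members and for the whole table, with 25 members and 4186 genes at an unadjusted p under 0.05. Taar7d and Vmn2r19 had an adjusted p under 0.05 with DESeq2, edgeR's exact test and its likelihood ratio test, Vmn2r44 with DESeq2 only, and no member with limma-voom. Over all genes tested these tools gave 177, 28, 53 and 0 genes with an adjusted p under 0.05, in the order DESeq2, exact test, likelihood ratio test and limma-voom. In these bulk samples fewer cells of a type and less RNA per cell cannot be told apart.

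The members that passed the filter had a median log2 fold change of 0.73, with 68 above 0 and 8 below, beside a median of -0.03 for all genes tested. A gene can pass this filter through the group in which it is high, so all 169 members with a count were also fitted without it. Their median was then 0.31, with 106 above 0 and 63 below, beside -0.12 for the 44086 genes with a count, and 25 were called higher and 2 lower, beside 3.82% and 7.08% of all genes. The calls that the unfiltered fit added were Taar1, Tas2r137 and Vmn2r48 on the higher side and Taar6 and Tas2r129 on the lower side, and apart from Taar1 these genes were chosen after their values were seen. Tas2r129 rested on 7 counts, all of them in Vehicle libraries. Without TMM factors, scaling by library size alone moved the median of all tested genes from -0.03 to 0.23, and the median of the tested members to 1.04, with 31 members called higher beside 7.47% of all genes.

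**Figure D1:**
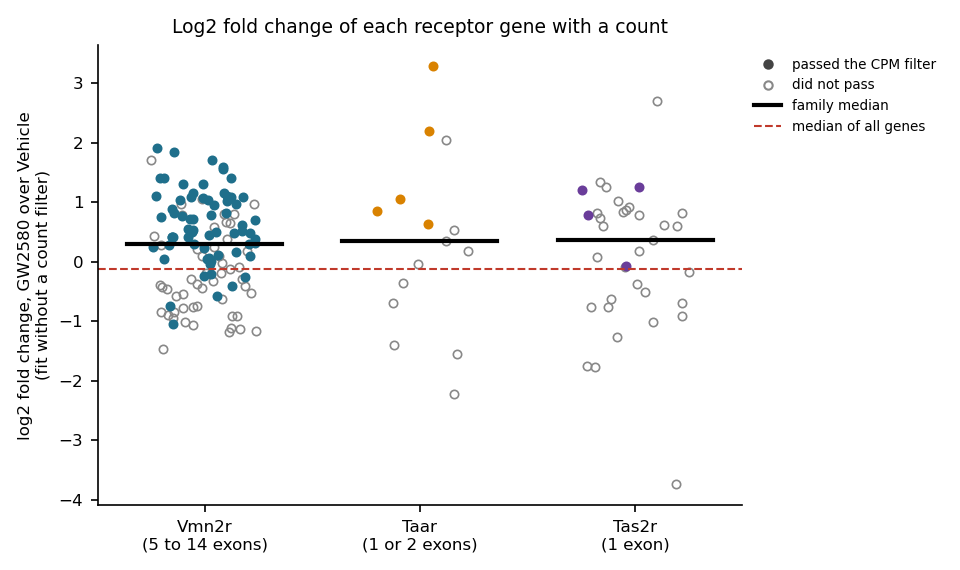
Log2 fold change (GW2580 over Vehicle) on the vertical axis for each member with a count, in the fit without a count filter, with families on the horizontal axis. Filled points passed the CPM filter, open points did not, black bars are the family medians (0.30 for Vmn2r, 0.35 for Taar and 0.36 for Tas2r) and the dashed line is the median of all genes (-0.12). Filled points sit mostly above the line, and open points spread to both sides of it.

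Most of the difference in CPM without TMM factors came from 2 mice. Summed over all 123 Vmn2r genes, the level was 141, 93.0, 116, 122 and 119 CPM in Vehicle 1 to 5, and 341, 127, 125, 323 and 151 CPM in GW2580 1 to 5. On this scale GW2580 1 and GW2580 4 exceeded all the others, while GW2580 2 and GW2580 3 lay inside the Vehicle range. After TMM scaling the Vmn2r sums were 278, 132, 180, 202 and 138 CPM in GW2580 1 to 5. The Vehicle libraries then ranged from 106 to 146 CPM, so GW2580 3 also lay above them. The Taar genes summed to 8.74, 6.68, 6.21, 7.87 and 9.06 CPM with Vehicle and to 25.5, 10.13, 9.09, 33.1 and 10.8 CPM with GW2580, and here the groups did not overlap, by a narrow margin that TMM scaling removed (3 of 5 treated mice above all Vehicle mice). The Tas2r genes summed to 12.6, 9.004, 9.24, 9.55 and 15.3 CPM with Vehicle and to 34.8, 14.6, 12.2, 34.8 and 13.6 CPM with GW2580, again with GW2580 1 and GW2580 4 above every other library and the other 3 inside the Vehicle range. The group means stood in a ratio of 1.80 for Vmn2r (118 ± 17.2 against 213 ± 109 CPM), 2.30 for Taar (7.71 ± 1.25 against 17.7 ± 10.9 CPM) and 1.97 for Tas2r genes (11.1 ± 2.76 against 22.0 ± 11.7 CPM, SD, n = 5 each). Without GW2580 1 and GW2580 4 these ratios were 1.13, 1.30 and 1.21. After TMM scaling the ratios were 1.46, 1.79 and 1.57 with all libraries, and 1.17, 1.34 and 1.24 without these 2. Within males the ratio over all members was 2.04 (n = 2 per group) and within females 1.72 (n = 3 per group), and each sex holds 1 of the 2 high libraries.

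**Figure D2:**
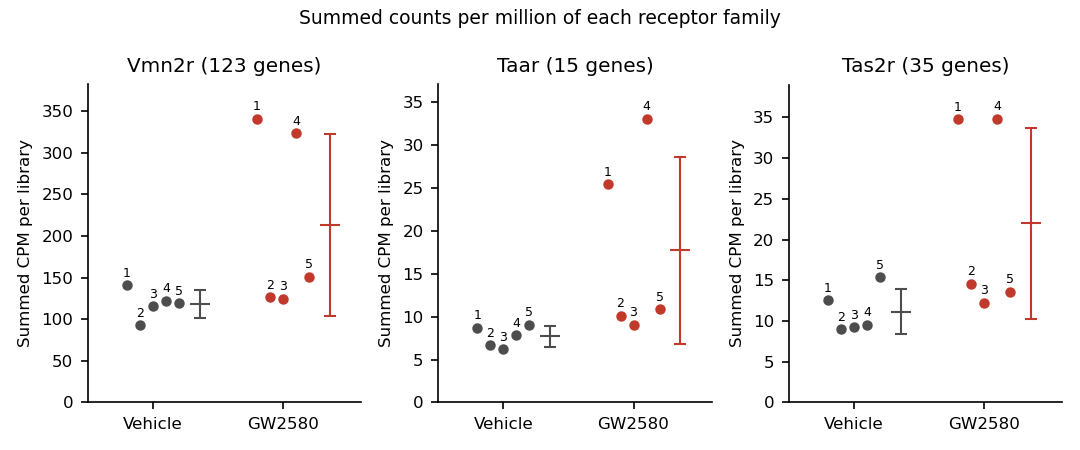
Summed CPM of the Vmn2r, Taar and Tas2r genes (vertical axes, CPM without TMM factors) in each library, with the replicate number above each point and the group mean ± SD beside the points. GW2580 1 and GW2580 4 reach 341 and 323 CPM for Vmn2r genes, and the other 8 libraries lie between 93.0 and 151 CPM.

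After TMM scaling, the medians of the 22 called members were 3.65, 1.38, 2.22, 3.24 and 1.05 CPM in GW2580 1 to 5. GW2580 1 and GW2580 4 again led, but GW2580 3 came next and GW2580 5 was the lowest treated mouse. GW2580 1 held the highest level of 16 of the 22 called members and the highest or second highest of all 22, and GW2580 4 was among the top 2 for 14 of them. All 5 GW2580 libraries exceeded all 5 Vehicle libraries for 3 called members (Vmn2r19, Vmn2r44 and Taar7d), and for 1 member that was not called, Vmn2r112, a gene noticed after its values were seen. That made 4 of the 76 tested members, beside 2.04% of all genes tested. Vmn2r44 and Taar7d passed the filter only through their GW2580 libraries. Among all 169 members with a count the number was also 4, and the share over all genes with a count was not computed. Leaving out GW2580 1 and GW2580 4, a choice made after seeing the data, left 3 of 57 tested members called, namely Vmn2r19, Vmn2r44 and Taar7d, beside 0.981% of all genes. Without the filter this fit called 5 of 169 members higher and 1 lower, beside 394 higher and 1453 lower of 43989 genes. The median of all 169 members with a count was then -0.05, and that of all genes with a count -0.10. Leaving out GW2580 1 alone left 6 calls (2.15% of all genes) and leaving out GW2580 4 alone left 13 (2.67% of all genes). Of the Vehicle libraries, leaving out Vehicle 2 gave 14 calls (2.99% of all genes), leaving out Vehicle 5 gave 30 (6.18% of all genes), and leaving out both gave 17 (5.09% of all genes). All 10 libraries gave 6 calls at an unadjusted p under 0.01 (1.43% of all genes) and 16 with the replicate number as a block (3.71% of all genes).

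Vmn2r19 (chromosome 6, 123308333 to 123336537, plus strand, 6 exons) was the member with the smallest p. Its level after TMM scaling was 1.30, 0.980, 1.67, 1.15 and 1.85 CPM in Vehicle 1 to 5 and 6.52, 3.62, 5.17, 5.02 and 2.64 CPM in GW2580 1 to 5. The groups did not overlap, and GW2580 5 was the lowest of the treated mice. The log2 fold change was 1.72 ± 0.35 (SE, edgeR quasi-likelihood test, unadjusted p = 0.000239, adjusted p = 0.280), the two-sided exact permutation test gave p = 0.00794, the smallest that 5 against 5 libraries allow, and the gene was called in all 10 fits that left out 1 library. Without GW2580 1 and GW2580 4 the log2 fold change was 1.46 (edgeR, unadjusted p = 0.00384).

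Vmn2r44 (chromosome 7, 8367460 to 8383238, minus strand) was at 0.866, 0.770, 0.752, 0.402 and 0.112 CPM with Vehicle and at 3.18, 1.32, 2.61, 2.18 and 1.42 CPM with GW2580, with no overlap between the groups. Its log2 fold change was 1.90 ± 0.51 (SE, edgeR, unadjusted p = 0.00238, adjusted p = 0.280) and 1.64 without GW2580 1 and GW2580 4. Vmn2r49 (chromosome 7, 9976245 to 9992139, minus strand) was at 0.650, 0.910, 0.251, 1.03 and 0.618 CPM with Vehicle and at 4.26, 1.25, 2.94, 3.46 and 0.677 CPM with GW2580. Here GW2580 5 fell inside the Vehicle range and the other 4 treated mice lay above it. Its log2 fold change of 1.85 ± 0.54 (SE, edgeR, unadjusted p = 0.00402) became 1.22 (edgeR, unadjusted p = 0.0710) without GW2580 1 and GW2580 4, and the call was lost. Vmn2r44 passed the filter only through its GW2580 libraries, and among the Vehicle libraries Vmn2r49 was above 1 CPM in Vehicle 4 alone. Both were also called in the fit without the filter. Both genes belong to the chromosome 7 clusters, which held 26 of the 67 tested and 10 of the 17 called Vmn2r genes. The remaining Vmn2r calls included Vmn2r79 (log2 fold change 1.59) and Vmn2r66 (1.06), and the 17 together ranged from 1.03 to 1.90.

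Some Vmn2r genes have a described role or a high level and were reported whatever their change. Vmn2r1, one of the broadly co-expressed receptors that accompany other type 2 receptors in vomeronasal neurons, had the highest count of the members and 14 exons over 12107 bases. It was at 10.54, 5.32, 10.36, 12.6 and 9.44 CPM with Vehicle and at 25.2, 13.7, 17.1, 20.6 and 9.48 CPM with GW2580, so that 4 of the 5 treated mice exceeded all Vehicle mice. Its log2 fold change of 0.83 ± 0.33 (SE, edgeR, unadjusted p = 0.0249) stayed under a fold of 2. Vmn2r2 lies within its span on the opposite strand, and because strand was ignored in counting the reads of the 2 genes cannot be told apart where they overlap. Vmn2r26, a receptor for peptide ligands of the major histocompatibility complex, had a log2 fold change of 0.55 (edgeR, unadjusted p = 0.231). Vmn2r116, the receptor of the male tear pheromone ESP1, did not pass the filter, and its level ranged from 0.17 to 1.26 CPM in Vehicle mice and from 0.28 to 0.47 CPM in treated mice.

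The Vmn2r genes with the highest levels were not those with the largest changes. Per kilobase of exon, Vmn2r82 was at 2.52 CPM with Vehicle and 2.57 with GW2580, and Vmn2r100 at 1.80 and 2.56, against 0.54 and 1.79 for Vmn2r19. Vmn2r82 had a log2 fold change of 0.03 (edgeR, unadjusted p = 0.929) and Vmn2r100 of 0.50 (edgeR, unadjusted p = 0.163), and neither was called. Vmn2r78 came close to a call, with a log2 fold change of 0.99 (edgeR, unadjusted p = 0.0318). Vmn2r21, Vmn2r46, Vmn2r47 and Vmn2r118 had no count in any library, which allows up to 3 counts per library, or 0.12 to 0.24 CPM. In the first 3 of these, 94.8% to 100% of the stretches of 150 bases were also present in another gene, and in Vmn2r118 none were. That search could not find a second copy annotated under the same gene name. Vmn2r118 was counted over 12 exons and 5199 exon bases but has 2559 coding bases. Whether its fragments went uncounted was not tested.

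Among the trace amine-associated receptors, Taar7d (chromosome 10, 24027222 to 24028298, plus strand, a single exon) had the largest log2 fold change of all members tested. Its counts were 8, 3, 1, 4 and 0 in Vehicle 1 to 5 and 54, 28, 30, 73 and 15 in GW2580 1 to 5. On the CPM scale these were 0.577, 0.210, 0.0835, 0.230 and 0 with Vehicle and 2.77, 1.85, 1.67, 3.46 and 1.02 with GW2580, and the groups did not overlap. The log2 fold change was 3.27 ± 0.68 (SE, edgeR, unadjusted p = 0.000279, adjusted p = 0.280, exact permutation p = 0.00794), and 2.76 (edgeR, unadjusted p = 0.00607) without GW2580 1 and GW2580 4. Of the 5 Taar7 genes, Taar7d and Taar7e passed the filter only through their GW2580 libraries, and Taar7a through both groups. Without the filter Taar7d, Taar7e and Taar7a were called, while Taar7b had a log2 fold change of 0.53 (edgeR, unadjusted p = 0.378) and Taar7f of -0.70 (edgeR, unadjusted p = 0.485).

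Taar7e, the neighbouring gene (24037614 to 24038690, plus strand), was at 0.577, 0.420, 0.752, 0.574 and 0 CPM with Vehicle and at 3.39, 1.52, 2.61, 2.37 and 0.542 CPM with GW2580. GW2580 5 fell inside the Vehicle range. The log2 fold change was 2.18 ± 0.68 (SE, edgeR, unadjusted p = 0.00620), and both Taar7d and Taar7e were called in all 10 fits that left out 1 library. Without GW2580 1 and GW2580 4, Taar7e no longer passed the CPM filter. Taar7a (23992405 to 23993481, minus strand) was at 2.09, 1.33, 1.42, 2.53 and 0.506 CPM with Vehicle and at 4.26, 1.85, 3.61, 4.78 and 1.83 CPM with GW2580. GW2580 2 and GW2580 5 lay inside the Vehicle range. The gene was called with a log2 fold change of 1.05 ± 0.45 (SE, edgeR, unadjusted p = 0.0354), a call that held in 4 of the 10 fits that left out 1 library.

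The other 2 Taar genes that passed the filter were not called. Taar9 was at 1.23, 0.560, 1.504, 1.84 and 3.202 CPM with Vehicle and at 5.39, 2.17, 2.39, 4.54 and 1.15 CPM with GW2580, with overlapping groups and a log2 fold change of 0.90 (edgeR, unadjusted p = 0.0931). Taar5, a receptor for trimethylamine, had a log2 fold change of 0.65 (edgeR, unadjusted p = 0.182). Taar1, the member of the family that acts on monoamine neurons rather than in the nose, had only 8 counts over the 5 Vehicle libraries and 44 over the 5 GW2580 libraries. It did not pass the filter, and without it the log2 fold change was 2.05 (edgeR, unadjusted p = 0.0157, adjusted p = 0.302). Taar2, Taar3 and Taar4, of which the last is a receptor for phenylethylamine, had 33 to 69 counts over all libraries and log2 fold changes of 0.17, -1.56 and 0.35 without the filter, with unadjusted p from 0.151 to 0.777 by the edgeR test.

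**Figure D3:**
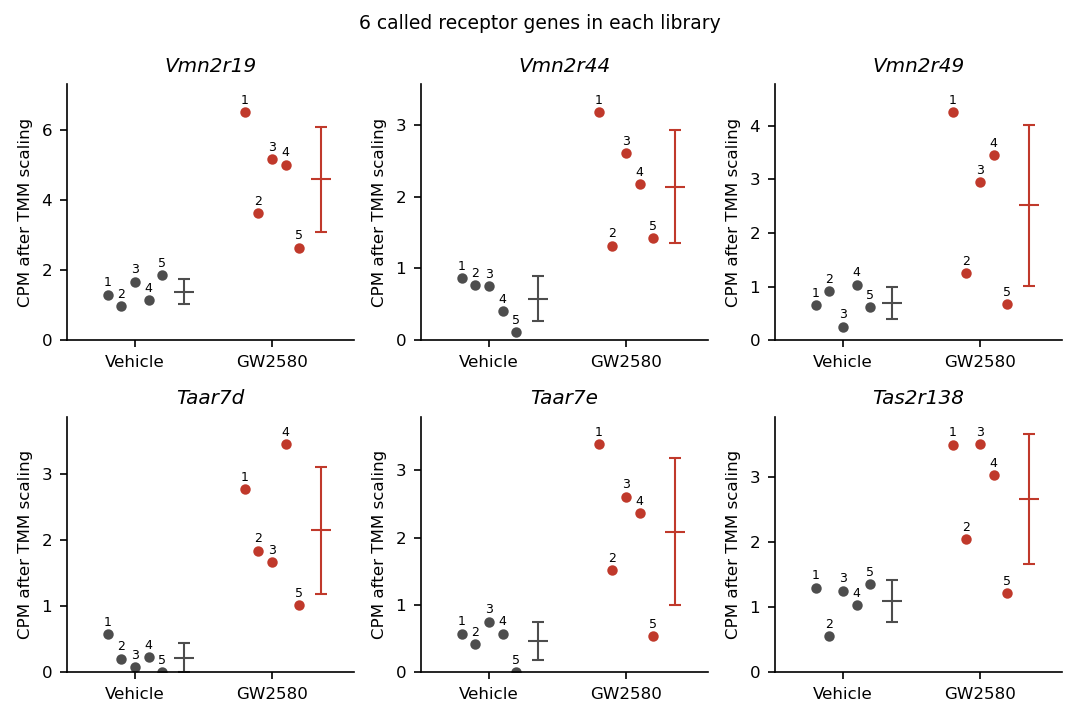
CPM after TMM scaling (vertical axes) of 6 called members in each library, with the replicate number above each point and the group mean ± SD beside the points. The groups do not overlap for Vmn2r19, Vmn2r44 and Taar7d, whereas for Vmn2r49, Taar7e and Tas2r138 GW2580 5 lies inside the Vehicle range.

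Of the bitter taste receptors 4 passed the filter. Tas2r138 (chromosome 6, 40612315 to 40613310, minus strand), the mouse counterpart of the human receptor for phenylthiocarbamide, was at 1.30, 0.560, 1.25, 1.03 and 1.35 CPM with Vehicle and at 3.49, 2.04, 3.50, 3.03 and 1.22 CPM with GW2580. GW2580 5 again fell inside the Vehicle range and the other 4 lay above it. The log2 fold change was 1.27 ± 0.41 (SE, edgeR, unadjusted p = 0.00728, adjusted p = 0.280, exact permutation p = 0.0317), called in all 10 fits that left out 1 library, and 1.04 (edgeR, unadjusted p = 0.0559, not called) without GW2580 1 and GW2580 4. Tas2r139 was called with a log2 fold change of 1.24 ± 0.52 (SE, edgeR, unadjusted p = 0.0318), with levels of 0.28 to 1.24 CPM in Vehicle mice and of 0.54 to 2.77 CPM in treated mice.

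Tas2r126 had the highest level per kilobase of the 173 members, at 3.62 CPM per kilobase with Vehicle and 6.39 with GW2580. It was at 2.17, 1.61, 2.84, 4.02 and 6.12 CPM with Vehicle and at 7.45, 5.86, 7.45, 6.15 and 2.71 CPM with GW2580. Vehicle 5 lay among the treated mice and GW2580 5 among the Vehicle mice, and the log2 fold change of 0.82 was not called (edgeR, unadjusted p = 0.0623). Tas2r135 and Tas2r143 lie close to it on chromosome 6 but had 21 and 19 counts over all libraries. Tas2r106 had a log2 fold change of 0.0027 (edgeR, unadjusted p = 0.997) and was at 4.55 CPM in Vehicle 5 and at 0.25 to 0.63 CPM in the other Vehicle mice. Of the bitter receptors with described ligands that did not pass, Tas2r105, which responds to cycloheximide, had 16 counts over all libraries, and Tas2r108, which responds to denatonium, had 106, of which 53 were in Vehicle 5. Tas2r118 had 31 counts, and none of these genes that did not pass was called in the unfiltered fit.

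The families were next compared by exon structure, as a description, since genes are not replicates. Among tested members, the median log2 fold change was 0.58 for the multi-exon Vmn2r genes and 1.05 for the 9 Taar and Tas2r genes, but 67 of 123 Vmn2r, 5 of 15 Taar and 4 of 35 Tas2r genes had passed, so these medians describe unequal parts of the families. Over all members with a count, the medians were 0.30 for Vmn2r and 0.35 for Taar and Tas2r genes, a difference of -0.05. That difference ranged from -0.24 to 0.23 over the alternative fits, so its sign was not stable. Without GW2580 1 and GW2580 4 the medians were -0.06 for Vmn2r, 0.15 for Taar and -0.24 for Tas2r genes.

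The members were then set against the fragments that lie outside annotated exons. In each library the fragments on no feature were divided by the kilobases within the span of the annotation that lie outside exons, and this off-exon density was 6.87 to 10.8 fragments per kb with Vehicle and 8.16 to 13.6 with GW2580. Fragments per exon kb of a member, divided by this density, had a median of 0.53 for Vmn2r, 0.71 for Taar and 0.30 for Tas2r genes over all libraries. Of the 173 members 45 (26.0%) were above 1, whereas the median of all 21869 protein-coding genes was 3.46 and 75.1% were above 1. The median member ratio was 0.49 with Vehicle and 0.50 with GW2580. The 6 members above 3 were Tas2r126 (9.15), Vmn2r82 (4.39), Taar9 (4.29), Taar7a (4.13), Vmn2r100 (3.86) and Tas2r138 (3.46). Vmn2r19 was at 2.16, Taar7d at 2.12, Taar7e at 2.22 and Vmn2r49 at 1.20. The off-exon density is a mean over the whole span of the annotation, and no density near each gene could be computed from the deposited totals.

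**Figure D4:**
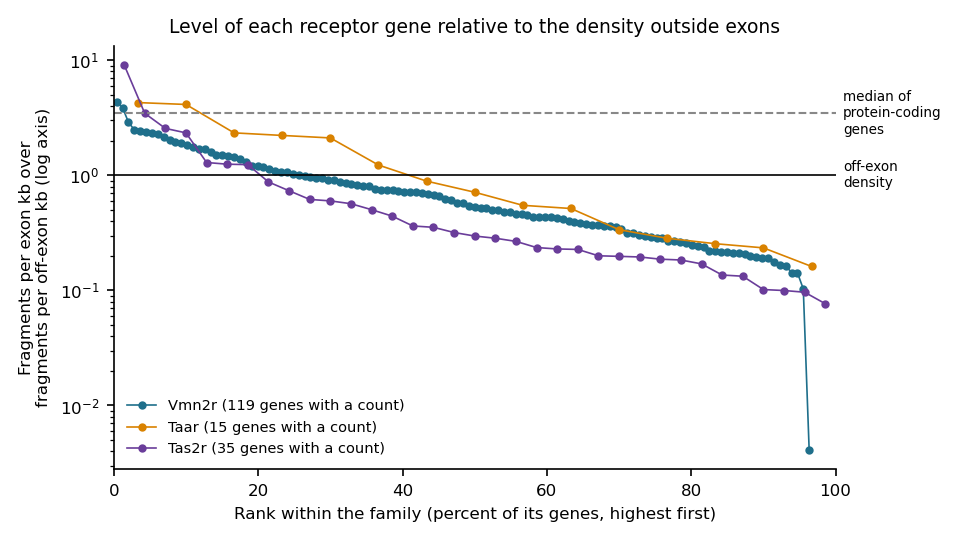
Fragments per exon kb divided by fragments per off-exon kb (vertical log axis), with the genes of each family ranked from highest to lowest (horizontal axis, percent of the family). The solid line marks the off-exon density and the dashed line the median of protein-coding genes, 3.46, and 45 of the 173 members lie above the solid line. The 4 Vmn2r genes with no count are not drawn.

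When each family's summed count was divided by its exon length and by the off-exon density of the same library, the group difference was smaller than in CPM. For Vmn2r genes the ratio was 0.71 ± 0.15 with Vehicle and 0.91 ± 0.24 with GW2580, for Taar genes 1.01 ± 0.33 and 1.56 ± 0.49, and for Tas2r genes 0.70 ± 0.32 and 0.95 ± 0.26 (SD, n = 5 each). GW2580 over Vehicle was then 1.28, 1.55 and 1.34, against 1.46, 1.79 and 1.57 in TMM-scaled CPM. With the fragments on no feature as the library size in the fit, an alternative added after seeing the data, 13 members were called higher, beside 2.71% of all genes. The median log2 fold change of the 76 tested members was then 0.52, beside -0.20 for all genes tested. With the share on no feature as a covariate 12 were called, beside 3.23% of all genes. Taar7d had a log2 fold change of 3.16, Vmn2r19 of 1.53 and Vmn2r44 of 1.77 when scaled by the fragments on no feature.

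Across the 10 libraries, the summed CPM of all members was higher where the share of unique fragments on no feature was higher (Pearson's r = 0.77, Spearman's rho = 0.66). The correlation of deviations from the group means was 0.72, and r was 0.70 over the 8 libraries left without GW2580 4 and GW2580 3, which lay farthest from the median share. It was 0.35 within the Vehicle and 0.80 within the GW2580 group. For Vmn2r genes r was 0.78, for Taar genes 0.74 and for Tas2r genes 0.69, against 0.80 for the 230 Vmn1r and 0.83 for the 1110 Olfr genes. Within the Vehicle group it was 0.50 for Vmn2r, -0.21 for Taar and -0.53 for Tas2r genes, so its sign differed between the families there, and within the GW2580 group 0.80, 0.80 and 0.78. These values are a description over few libraries, 2 of which are high on both axes, and both measures share the assigned fragments of the same library. With TMM-scaled sums r was 0.51. After GW2580 1 and GW2580 4, GW2580 5 had the highest share, 64.7%. Its Vmn2r sum without TMM factors was also the highest after theirs, at 151 CPM against 341 and 323 CPM.

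**Figure D5:**
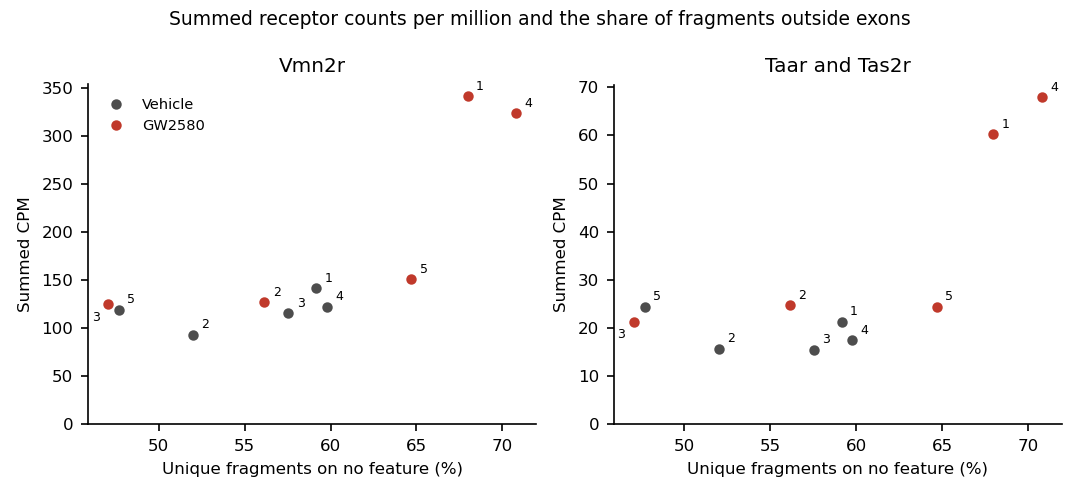
Summed CPM of Vmn2r genes (left) and of Taar and Tas2r genes (right) on the vertical axes against the percentage of unique fragments on no feature on the horizontal axis, 1 point per library with its replicate number. GW2580 1 and GW2580 4, at 68.0% and 70.8%, stand far above the other 8 libraries, and GW2580 5, at 64.7%, does not.

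Other chemosensory receptor families, set beside the members, had calls in the same direction. Of 27 tested Vmn1r genes, which encode the other type of vomeronasal receptor, 13 were called higher and 0 lower, and of 195 tested Olfr genes 69 and 0, beside 4.01% and 6.7% of all genes tested. Without the filter 20 Vmn1r genes were called higher and 8 lower of 193 with a count, and 124 and 44 of 1047 Olfr genes, beside 3.82% and 7.08% of all genes with a count. Over all genes with a count their median log2 fold changes were -0.03 and -0.03, against 0.31 for the members, and whether the families differ was not tested. GW2580 over Vehicle in summed CPM was 1.66 for Vmn1r and 1.77 for Olfr genes, and 1.16 and 1.19 without GW2580 1 and GW2580 4.

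The genes through which these receptors signal were also examined. Of 36 listed genes of vomeronasal, olfactory and taste transduction, 35 were counted, 26 were tested, 0 were called higher and 4 were called lower, beside 4.01% and 6.7% of all genes, with a median log2 fold change of -0.59. Trpc2, the channel on which vomeronasal signalling depends, had no count in any library. It has 3342 exon bases, and the off-exon density was 6.87 to 13.6 fragments per kb, so this 0 cannot be read as absence. Whether its fragments went uncounted because they could not be assigned to 1 gene was not tested. Gnao1, the G protein subunit that type 2 receptors use and that neurons also express widely, was called lower, at 12.5, 43.5, 15.5, 20.0 and 54.6 CPM with Vehicle and 6.62, 9.42, 7.11, 22.8 and 14.02 CPM with GW2580. Vehicle 2 and Vehicle 5 were its highest libraries, and its log2 fold change of -1.29 ± 0.48 (SE, edgeR, unadjusted p = 0.0174, adjusted p = 0.280) became -0.42 without them. Gng13 (log2 fold change -3.90) was at 42.8 CPM in Vehicle 2 and at 0.11 to 1.66 CPM in the other 9 libraries, and its log2 fold change was -0.89 without Vehicle 2. Of the 9 H2-M genes, nonclassical histocompatibility genes expressed with type 2 receptors, only H2-M10.5 was tested (log2 fold change 0.10, edgeR, unadjusted p = 0.878). It was the highest of them, at a mean of 0.64 CPM with Vehicle and 0.67 CPM with GW2580. Its mean ratio to the off-exon density was 0.20 with Vehicle and 0.19 with GW2580. The exon length behind these ratios, 5536 bases in 24 exons, exceeds the gene's own span (36772910 to 36776235). The ratios are therefore too low and give no level relative to the off-exon density. Whether fragments of these genes went uncounted was not tested.

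In the taste pathway, Trpm5, the channel that depolarises taste cells, was called lower (6.93, 9.17, 4.51, 3.39 and 16.9 CPM with Vehicle, 1.44, 2.31, 1.11, 1.51 and 6.16 CPM with GW2580). Its groups overlapped through GW2580 5, and Vehicle 5 and Vehicle 2 were its highest libraries. The log2 fold change was -1.71 ± 0.54 (SE, edgeR, unadjusted p = 0.00684, adjusted p = 0.280). Tas1r2, the sweet receptor subunit, was called lower with a log2 fold change of -1.43 (edgeR, unadjusted p = 0.0188). The highest library for Tas1r2 was Vehicle 2, at 3.01 CPM against 1.18 to 2.09 CPM in the other Vehicle libraries. Itpr3, the calcium release channel, had a log2 fold change of -0.87 (edgeR, unadjusted p = 0.00880), under a fold of 2. Plcb2, the phospholipase of taste transduction that myeloid cells also express, was at 50.7 ± 21.5 CPM in Vehicle mice and at 63.0 ± 23.5 CPM in treated mice (SD, n = 5 each), with an unadjusted p of 0.393 by the edgeR test. Gnat3, the taste G protein subunit, was at 0.99 ± 0.40 and 1.70 ± 0.77 CPM in the same order, with an unadjusted p of 0.0953 by the edgeR test.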

How the data were processed

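RNA-seq libraries of CD11b-selected brain microglia from 10 mice were grouped by the sample labels. The authors trimmed the read pairs (Trimmomatic 0.33), aligned them to GRCm38 with STAR 2.6.0 and deposited unnormalized counts of uniquely aligned fragments per RefSeq gene, made without strand by featureCounts (1.6.3 in the file headers, Subread 1.5.2 in the methods), with the deposited totals of fragments that could not be assigned. Multimapping fragments were not counted, which lowers the counts of close copies. Symbols, positions and exons came from the deposited table and the RefSeq table of the same build.

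Genes over 1 CPM in at least 3 libraries were scaled by TMM, and the effect of treatment was tested by edgeR's quasi-likelihood test (edgeR 4.0.16, R 4.3.3) with no covariate. Following the study's methods, genes with more than a 2-fold change at an unadjusted p below 0.05 were called, and Benjamini-Hochberg adjustment covered all genes tested. The standard error was the log2 fold change divided by the square root of F. Single genes were also tested by a two-sided exact permutation of log2 CPM (prior count of 2) over 252 splits. The tests were checked on simulated counts with known fold changes, drawn independently for each gene and library. The simulation held no shift shared by many genes of a library, so it does not cover libraries such as GW2580 1 and GW2580 4. Alternatives were DESeq2 1.42.0, limma-voom (limma 3.58.1), edgeR's other tests, scalings, filters, covariates and left-out libraries. Named genes were those the study names, those with a described role, the 4 highest and up to 5 called of smallest p in each family, and, in the transduction list, called genes and those of highest CPM. The members and lists were chosen with earlier results of these data known. A further microglia marker is not reported here. Identity and shared stretches were computed on GENCODE M21 coding sequences in Python 3.11.15. Counting limits cover counting error only, since reads were not tagged as single molecules.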

Additional observations from a re-analysis of the deposited data

Results flagged for a closer look

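Dixon's ratio was computed for 76 groups of 5 libraries, and 5 values lay outside the range the test allows at 95%, where chance gives about 1 in 20. In Vehicle 5 the Tas2r genes together were at 1.26 times the off-exon density and the Taar and Tas2r genes together at 1.36 times, above the other 4 Vehicle libraries. Tas2r106 was at 4.55 CPM in the same library. Gng13, a G protein subunit of olfactory and taste cells, was at 42.8 CPM in Vehicle 2. Trpm5 was at 6.16 CPM in GW2580 5, above the other 4 GW2580 libraries. Their part in the group differences was not tested beyond the fits without each library.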

How the results depend on the processing

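The number of members called, 22, was 12 with the share on no feature as a covariate (3.23% of all genes), 13 with the fragments on no feature as library size (2.71%), 8 without GW2580 3 and GW2580 4 (1.72%), 3 without GW2580 1 and GW2580 4 (0.981%), and 6 at an unadjusted p under 0.01 (1.43%). Over the fits that left out 1 library it ranged from 6 to 30. The 2 members called lower without the filter compare with 0 with it. The log2 ratio of summed CPM fell from 0.85 to 0.18 for Vmn2r and from 1.08 to 0.32 for Taar and Tas2r genes without GW2580 1 and GW2580 4, and the correlation with the share on no feature from 0.77 to 0.51 with TMM scaling. The cause of these changes was not tested. Among single named genes no alternative reversed the direction of a call, 50 alternative values lost a call and 18 gained one. Same-numbered mice were not paired, since the correlations of their deviations ranged from -0.39 to 0.13, and with the replicate block 16 members were called, beside 3.71% of all genes. Depth limits the Taar and Tas2r genes most, with medians of 69 and 27 counts over all 10 libraries.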
